A study of Mus musculus with 15 samples.

Results

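Genes that cells use to cope with misfolded protein and with changes in temperature were followed in the livers and lungs of mice fed a control diet (CS) or a diet with 2% phytosterols (PS), the plant sterols that compete with cholesterol for absorption in the gut. They were picked by gene symbol, and 10 of the 54532 genes in each count table carry one of the symbols: Hspa1a, Hspa1b, Hspa8, Hsph1, Dnajb1, Hsp90aa1, Hsp90ab1, Hspa5, Cirbp and Rbm3. Liver libraries came from 9 mice (4 CS, 5 PS), and 6 of these mice (3 CS, 3 PS) also gave a lung library, all made from poly(A) RNA. All were wild type C57BL/6J mice, male by the study's methods. The labels give 28 weeks as the age, while the methods describe mice already several weeks old when feeding began, so the age at collection is not settled. The libraries held 14410117 to 17625179 counts in the liver and 17934930 to 19396057 in the lung, and each is 1 mouse and 1 tissue, so the p-values below measure the spread between mice. Albumin (Alb) reached 43483 to 77499 TPM (counts divided by gene length and scaled to 1 fixed total in every library) in the livers and at most 60.1 in the lungs, while surfactant protein C (Sftpc) reached 26877 to 55730 in the lungs and at most 1.27 in the livers. In bulk tissue, fewer cells of a type and less RNA per cell cannot be told apart.

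HSP70 proteins bind exposed stretches of unfolded protein and release them in cycles of ATP hydrolysis. J-domain proteins such as DNAJB1 start the cycle, HSP110 (Hsph1) restarts it by exchanging the nucleotide, and HSP90 takes over many partly folded clients. Heat shock factor 1 (HSF1) switches on the inducible members by binding heat shock elements, Hspa5 (BiP) does the same work inside the endoplasmic reticulum and answers to the unfolded protein response, and Cirbp and Rbm3 are small RNA-binding proteins whose RNA rises with mild cooling. The liver, a heavy secretor of protein, is known for a large and feeding-dependent BiP supply, and body temperature and the clock both drive Cirbp there.

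The promoters of the inducible HSP70 pair are shown first. The pair took different shares of their summed reads in the 2 tissues, and the split of reads between them is uncertain, as given below. The part of the promoters in these shares was not tested. The 250 bases before the RefSeq start (GRCm38.p6) are given 5′ to 3′ on the gene's strand, minus for both genes, at chr17:34972157-34972406 for Hspa1a and chr17:34959239-34959488 for Hspa1b. Capitals mark the 2-unit heat shock element GAANNTTC, read the same on both strands, and the octamer TCCCCGCC that has been tied to mild-cold induction, here on the opposite strand and so printed as its reverse complement.
Hspa1a: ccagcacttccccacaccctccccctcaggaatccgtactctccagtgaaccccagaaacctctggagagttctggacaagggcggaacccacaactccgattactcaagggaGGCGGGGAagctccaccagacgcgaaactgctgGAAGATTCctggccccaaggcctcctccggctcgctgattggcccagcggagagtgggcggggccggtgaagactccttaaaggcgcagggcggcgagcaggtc
Hspa1b: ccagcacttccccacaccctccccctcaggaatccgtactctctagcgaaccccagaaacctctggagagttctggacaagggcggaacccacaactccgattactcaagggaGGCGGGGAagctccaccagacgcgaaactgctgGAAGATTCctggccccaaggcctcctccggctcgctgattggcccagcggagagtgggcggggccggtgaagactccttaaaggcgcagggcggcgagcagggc
The pair differed at 3 of these 250 bases (98.8% identity), at positions -207, -204 and -2 counted back from the base before the start, so the heat shock element at -104 to -97 and the octamer at -137 to -130 were the same in both. For 3 other members, 30 bases around the match are shown, since those promoters run into exons of the files' gene models or hold their match at the far end. Capitals mark a tail-to-tail heat shock element (TTCNNGAA) at chr5:149636351-149636380 on the minus strand for Hsph1, the endoplasmic reticulum stress element (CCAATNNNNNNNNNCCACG) at chr2:34772020-34772049 for Hspa5 and the octamer at chr10:80167589-80167618 for Cirbp, the last 2 on the plus strand.
Hsph1: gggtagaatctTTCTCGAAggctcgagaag
Hspa5: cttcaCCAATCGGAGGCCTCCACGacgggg
Cirbp: ctgTCCCCGCCtcctagtcgctagcgggcg
Both strands were searched. Of 32851 promoter windows of this length, 6.69% held GAANNTTC, 7.17% TTCNNGAA and 12.8% at least one of them, 4.64% held the octamer and 0.113% the stress element, so the match in Hspa5 was to a rare sequence and the matches in the HSP70 pair, Hsph1 and Cirbp were to common ones. The 3-unit elements GAANNTTCNNGAA and TTCNNGAANNTTC, each in 0.466% of windows, were in no member's window. Windows were listed for 6 of the 10 members, and Dnajb1 held no match to any of the searched motifs. Not looked up here were Hspa8, Hsp90aa1, Hsp90ab1 and Rbm3.

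The level of each gene per unit of length, as TPM, spanned about 3 orders of magnitude and kept much of its order between the tissues. In the liver the constitutive HSP70 Hspa8 (chr9:40800984-40810087) stood at a median of 867 TPM (762 to 1176), above Hsp90ab1 with 692 (320 to 1008) in 8 of 9 libraries. Hspa5 followed at 300 TPM (70.6 to 610) and Hsp90aa1 at 104 (36.1 to 192), and each of these 4 exceeded the next in every liver except for that 1 library. Dnajb1 (22.2), Hsph1 (15.9) and Hspa1b (14.6) overlapped so widely that Hsph1 exceeded Hspa1b in only 4 of 9 livers. Cirbp (11.4) and Rbm3 (9.53) lay below them, and Hspa1a closed the order with 0.989 TPM (0.401 to 3.16), higher than only 15.6% of the genes tested in the liver by their median TPM.

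In the lung, the first 2 places were again held by Hspa8 (median 894 TPM, 634 to 1178) and Hsp90ab1 (798, 694 to 1224), but Hspa8 was above Hsp90ab1 in only 2 of 6 lungs, so their order was not resolved. Hsp90aa1 (329, 212 to 360) now stood above Hspa5 (233, 198 to 328) in 6 of 6 lungs. Cirbp (53.6), Dnajb1 (48.0) and Rbm3 (47.7) were next and overlapped, and Hsph1 (28.1), Hspa1b (21.7) and Hspa1a (11.6) followed, with Hspa1b above Hspa1a in every lung. The plot of levels by library shows that the widest gaps between tissues were those of Hspa1a, Cirbp, Rbm3 and Hsp90aa1.

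**Figure D1:**
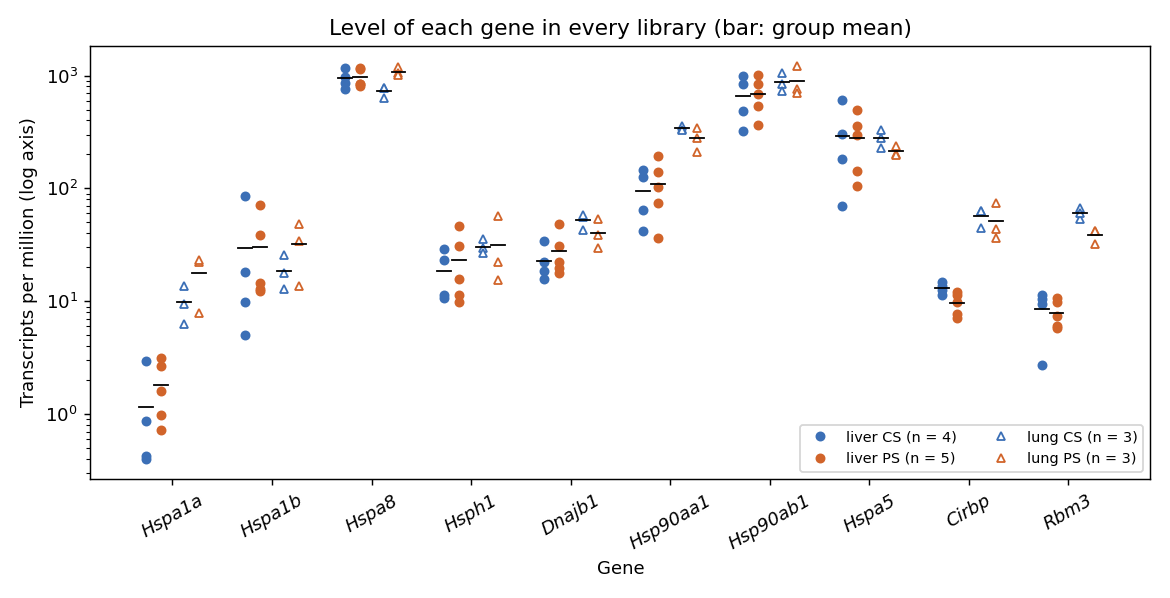
Level of each of the 10 genes in every library, in TPM on a log axis, with filled circles for liver and open triangles for lung, blue for CS, orange for PS and a black bar at each group's mean. Hspa8 and Hsp90ab1 sit at the top in both tissues (liver medians 867 and 692 TPM, lung 894 and 798), and Hspa1a has the lowest liver median, 0.989 TPM, against 11.6 in the lung.

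The first comparison asked whether the PS diet moved these genes in the liver. None of the 10 passed edgeR's quasi-likelihood test, either at an adjusted p under 0.05 (background 0.00758%, 1 of 13195 genes) or at the looser unadjusted p of at most 0.05 (background 7.55%, 996 genes), and DESeq2 called none of them either. The fold changes of 8 members lay above 0 and those of Cirbp and Rbm3 below it, with a median of 0.12 (log2) against -0.03 over all genes. Among the inducible genes, Hspa1a and Hspa1b varied more between mice on the same diet than 90.9% and 97.6% of genes tested. Hsph1 and Hsp90aa1 varied more than 77.8% and Dnajb1 more than 40.3%. Levels within a tissue are given below as CPM, counts scaled to 1 fixed library total after TMM scaling, a factor per library estimated from the bulk of the genes.

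The inducible HSP70s showed the widest spread. Hspa1b (chr17:34956436-34959238, minus strand) stood at 99.3, 16.4, 20.9 and 7.56 CPM in the 4 CS livers and at 21.3, 19.4, 18.5, 82.9 and 52.5 CPM in the 5 PS livers. Mouse CS01 was the highest of all and CS09 the lowest, so the CS group enclosed the whole PS group. The log2 fold change was 0.11 (SE 0.70, 95% interval -1.42 to 1.64, edgeR adjusted p = 0.993), and the spread within a diet, 1.26 on the log2 scale, was wider than that of 97.6% of genes. Hspa1a (chr17:34969190-34972156, minus strand) stood at 3.64, 0.741, 1.04 and 0.64 CPM in the CS livers and at 2.94, 1.02, 1.52, 3.88 and 3.78 CPM in the PS livers, again with CS01 standing with the high PS mice. Its fold change was 0.77 (SE 0.59, edgeR adjusted p = 0.835). Without CS01 the values were 1.68 for Hspa1a (unadjusted p = 0.00941, adjusted p = 0.775 in edgeR) and 1.38 for Hspa1b (unadjusted p = 0.0336, adjusted p = 0.908), and leaving out any other liver took neither past the unadjusted threshold.

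Hspa8, the abundant constitutive HSP70, behaved otherwise. It stood at 1723, 2960, 1515 and 1764 CPM in the CS livers and at 2234, 1647, 1865, 2039 and 2424 CPM in the PS livers. Mouse CS02 was the highest and the groups overlapped fully, with a fold change of 0.04 (SE 0.23, edgeR adjusted p = 0.993). The nucleotide exchange factor Hsph1 stood at 86.2, 49.4, 68.7 and 42.2 CPM in CS and 44.4, 54.7, 42.6, 141 and 108 CPM in PS livers. Mice PS11 and PS15 were above every CS mouse while the other 3 PS mice were not (fold change 0.34, SE 0.38, edgeR adjusted p = 0.92). Dnajb1, the J-domain partner, was likewise highest in PS11 (63.9 CPM) and otherwise 29.1 to 47.5 CPM in both diets (0.32, SE 0.24, edgeR unadjusted p = 0.204).

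Both cytosolic HSP90 genes gave the same picture at a higher level. Hsp90aa1, the stress-inducible form, ranged from 96.8 to 235 CPM in CS and from 86.9 to 312 CPM in PS livers (0.27, SE 0.37, edgeR adjusted p = 0.944). Hsp90ab1, the constitutive form, ranged from 566 to 1224 CPM in CS and from 676 to 1249 CPM in PS livers (0.13, SE 0.26, adjusted p = 0.97). Hspa5 (chr2:34771970-34777547) stood at 1065, 176, 524 and 419 CPM in CS and 275, 600, 316, 865 and 725 CPM in PS livers. CS01 was thus 6.06 times CS02 on the same diet. The 3 lowest livers, CS02, PS04 and PS09, were also the 3 with the highest mitochondrial share of counts (14.4%, 13.3% and 9.79%), and the part of this in the spread was not tested. The fold change was 0.03 (SE 0.48, edgeR adjusted p = 0.999).

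The same 3 livers, CS01, PS11 and PS15, were the 3 highest of 9 for 7 of the 8 heat shock genes, all but Hspa8, whether the gene works in the cytosol or, like Hspa5, in the endoplasmic reticulum. One of these mice was on the CS diet and 2 were on the PS diet. The set was taken from the highest livers for Hspa1b in the same data. The share of all liver genes with the same 3 on top was not computed, so the count of 7 has no background beside it. In the lung, where 2 of these mice were also sampled, PS04 and PS15 were the 2 highest libraries for Hspa1a and Hspa1b and for no other heat shock gene, while CS01 and PS15 were the 2 highest for Hsph1 and Hsp90ab1. CS01, the highest liver for Hspa1b, had a lung level of 21 CPM, in the lower part of the 16.9 to 60.3 CPM range there.

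**Figure D2:**
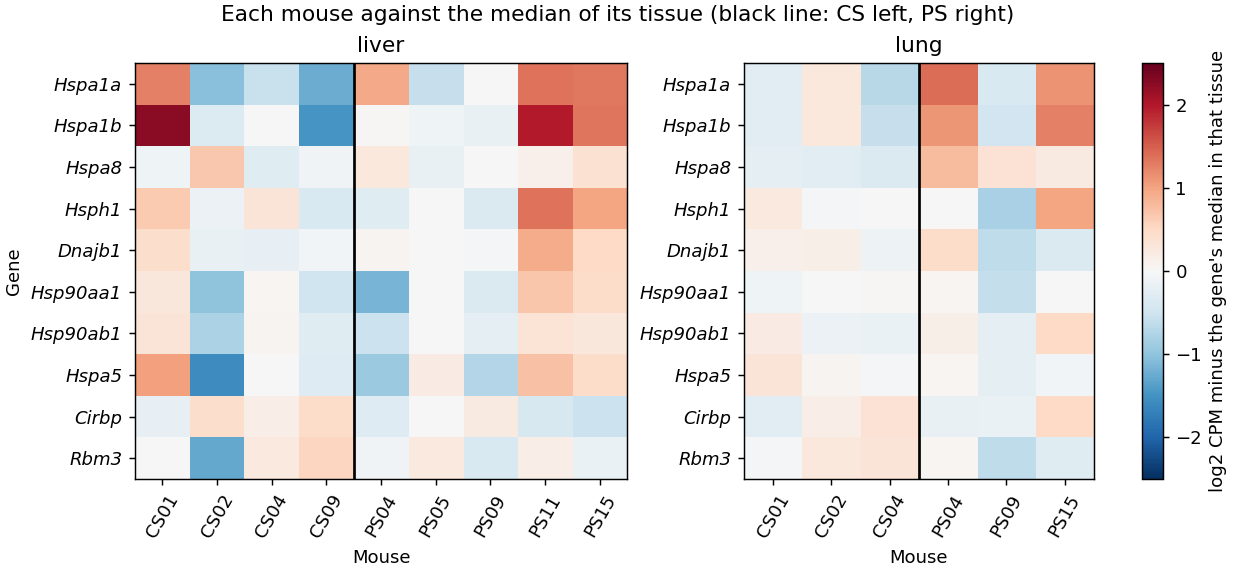
Log2 CPM of each gene in each mouse minus that gene's median in the tissue, red above and blue below, with CS mice left and PS mice right of the black line. In the liver CS01, PS11 and PS15 are red in 7 of the 8 heat shock genes and blue in Cirbp, and in the lung PS04 and PS15 are red in Hspa1a and Hspa1b.

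Cirbp ran the other way in the liver. It stood at 12.3, 19.2, 15.8 and 19.3 CPM in CS and at 11.3, 14.1, 16.4, 10.7 and 9.68 CPM in PS livers (means 16.7 ± 3.33, SD, n = 4, and 12.4 ± 2.76, n = 5). PS15 and PS11 were the 2 lowest and CS01 the fourth lowest of 9, so these livers, high in heat shock RNA, were low in Cirbp. PS04, at 11.3 CPM, was below CS01 in Cirbp but was the lowest liver for Hsp90aa1 (86.9 CPM). Pearson correlations of log2 CPM between Cirbp and the 8 heat shock genes were above 0 for 0 of 8 in the liver and 5 of 8 in the lung. In the liver the diets overlapped in Cirbp through CS01 and PS09. The fold change was -0.42 (SE 0.21, interval -0.89 to 0.05, unadjusted p = 0.0731, adjusted p = 0.707 in edgeR). It was -0.55 without CS01 (unadjusted p = 0.0307) and -0.54 without PS09 (unadjusted p = 0.0312), and neither passed after adjustment. Rbm3 stood at 18.5, 7.61, 21.8 and 26.8 CPM in CS and at 17.3, 21.8, 14.2, 20.8 and 16.6 CPM in PS livers, with CS02 alone at the bottom (-0.04, SE 0.30, adjusted p = 0.993).

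Clock genes differed between the diets in the same livers at the unadjusted threshold. Of 15 core clock genes and their outputs, 9 were higher and 4 lower in PS at an unadjusted p of at most 0.05 (7.55% of all genes), and none at an adjusted p under 0.05 in edgeR. Arntl (BMAL1) stood at 13.9 to 23.2 CPM in CS and at 4.02 to 9.66 CPM in PS livers, and Dbp, an output of the clock, at 0.828 to 26.6 and 28.4 to 112 CPM, with no overlap in either (3.63% of all liver genes had none). The summed level of the 15 genes was 138 to 232 TPM in CS and 219 to 328 TPM in PS livers. Of 9 immediate early genes tested, 1 was higher and 2 were lower at the unadjusted threshold. Their part in the levels of Cirbp and the heat shock genes was not tested.

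In the lung the 3 cytosolic HSP70 genes, Hspa1a, Hspa1b and Hspa8, were the members with the largest changes. Hspa5, the HSP70 of the endoplasmic reticulum, was at -0.21. None of the 10 passed at an adjusted p under 0.05 in edgeR (background 9.22%, 1542 of 16717 genes), while 4 were at an unadjusted p of at most 0.05 (background 30.1%, 5040 genes), Hspa1a, Hspa1b and Hspa8 above and Rbm3 below the CS level. That count of 4 fell to 1 with the GC trend removed, to 2 without a filter, with limma or with the replicate block, to 3 with total counts, and to between 1 and 3 with a lung left out (2 without CS01, 3 without CS02, PS04 or PS09, and 1 without CS04 or PS15). The median over the members was 0.08 (log2) against 0.01 over all genes.

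Hspa8 stood at 1418, 1376 and 1285 CPM in the CS lungs and at 2859, 2112 and 1917 CPM in the PS lungs. The lowest PS lung was above the highest CS lung, and Hspa8 was the only member of which this held in CPM (background 36.0%, 6023 genes, for groups of 3 that do not overlap). In the liver no member was free of overlap (background 3.63%, 479 genes). The lung fold change of Hspa8 was 0.76 (SE 0.21, 1.69-fold, interval 0.29 to 1.22), just outside the threshold in edgeR (adjusted p = 0.0518). DESeq2 gave 0.76 with an adjusted p of 0.00163, and edgeR passed the threshold without a filter on low counts (0.0262), with at least 10 counts required in every library (0.0487), after removal of each library's trend with GC content (0.0414) and without PS15 (0.0316). Over the other alternatives the adjusted p lay between 0.0518 and 0.165.

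Hspa1a stood at 11.8, 16.9 and 8.79 CPM in the CS lungs and at 37.2, 10.9 and 30.7 CPM in the PS lungs. Mice PS04 and PS15 were above every CS lung, whereas PS09 lay inside the CS range. The fold change was 1.07 (SE 0.42, 2.1-fold, unadjusted p = 0.0339, adjusted p = 0.131 in edgeR), and DESeq2 gave an adjusted p of 0.0433. The unadjusted p rose to 0.109 without a filter, 0.0773 with the GC trend removed, 0.072 and 0.0769 with limma, 0.134 with the replicate block, and 0.0865 to 0.142 without CS01, CS04, PS04 or PS15. Hspa1b followed it lung by lung, with 21, 29.9 and 16.9 CPM in CS and 54.1, 18.1 and 60.3 CPM in PS lungs (0.97, SE 0.42, unadjusted p = 0.0477, adjusted p = 0.161), and it lost the unadjusted threshold under those same alternatives and under total counts (0.0591). Counted as 1 gene, the pair gave 1.00 (adjusted p = 0.148).

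The other chaperones did not pass. Hsph1 stood at 109, 89.0 and 91.2 CPM in CS and at 91.8, 52.4 and 182 CPM in PS lungs, so that PS15 was the highest and PS09 the lowest of all 6 (0.18, SE 0.38, edgeR adjusted p = 0.788). Dnajb1 stood at 76.2, 78.0 and 64.6 CPM in CS and at 96.3, 44.9 and 54.8 CPM in PS lungs (-0.16, SE 0.26, adjusted p = 0.716), and without PS04 it was called lower (-0.55, adjusted p = 0.0491). Hsp90aa1 (-0.12, SE 0.20, adjusted p = 0.73) and Hsp90ab1 (0.19, SE 0.23, adjusted p = 0.608) overlapped between the diets, and so did Hspa5, at 454 to 586 CPM in CS and 393 to 483 CPM in PS lungs (-0.21, SE 0.17, adjusted p = 0.435). The interval of Hspa5, -0.60 to 0.18, was far narrower than its liver interval of -1.02 to 1.07.

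Among the cold-inducible genes, Rbm3 (chrX:8138975-8145880, minus strand) stood at 105, 131 and 135 CPM in the CS lungs and at 112, 70.3 and 88.1 CPM in the PS lungs. CS01 was below PS04 and the groups overlapped by these 2 lungs, although in TPM, for which the share of all genes without overlap was not computed, they did not (53.1 to 67.2 against 31.9 to 42.4). The fold change was -0.46 (SE 0.19, 0.729-fold, unadjusted p = 0.042, adjusted p = 0.149 in edgeR), and it was -0.65 (adjusted p = 0.0401) without PS04. The unadjusted p was above 0.05 with the GC trend removed (0.0892) and without CS02, CS04, PS09 or PS15 (0.0839 to 0.156). Cirbp stood at 49.1, 67.6 and 77.1 CPM in CS and 53.1, 53.3 and 85.0 CPM in PS lungs (-0.02, SE 0.23, adjusted p = 0.969).

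**Figure D3:**
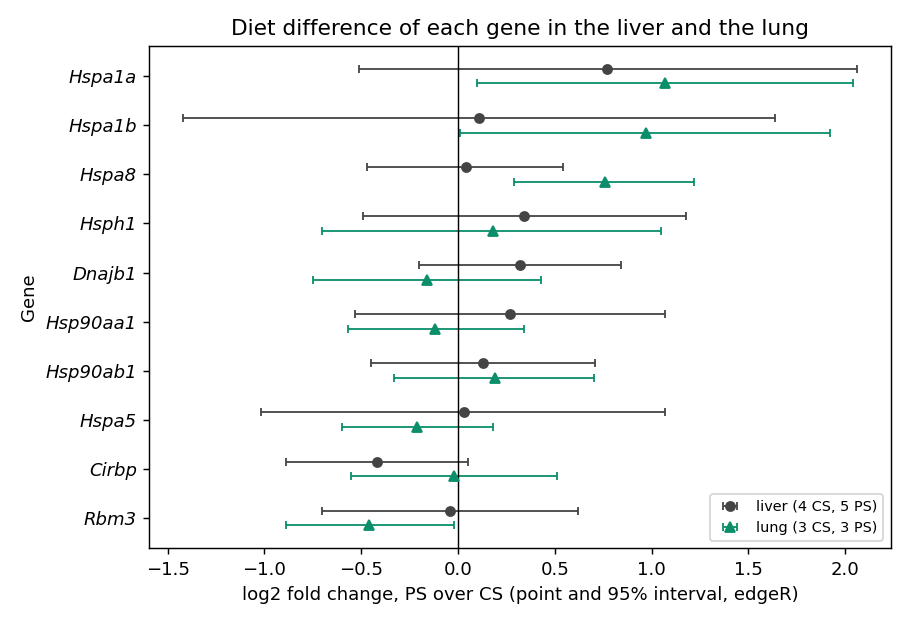
Log2 fold change of PS over CS for each gene, with its 95% interval from edgeR, in the liver (grey circles, 4 CS and 5 PS mice) and the lung (green triangles, 3 CS and 3 PS mice). In the lung the intervals of Hspa1a, Hspa1b, Hspa8 (0.29 to 1.22) and Rbm3 leave out 0, and in the liver none does.

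The difference between the tissues in the diet effect was tested in 1 model over the 15 libraries, without the mouse as a block. The liver and lung of a mouse were thus treated as independent, and no member was called with the block either. No member passed at an adjusted p under 0.05 in edgeR (background 0.0226%, 4 of 17696 genes), and none at an unadjusted p of at most 0.05 (1935 genes). DESeq2 also called none after adjustment, and Hspa8 alone had an unadjusted p of at most 0.05 in it (0.0322, adjusted p = 0.295). Hspa8 had the largest ratio of value to error, with a lung effect 0.67 higher than the liver effect (SE 0.39, adjusted p = 0.53). For Hspa1b the value was 0.81 (SE 0.99, adjusted p = 0.789), for Cirbp 0.35 (SE 0.33, adjusted p = 0.704) and for Rbm3 -0.45 (SE 0.43, adjusted p = 0.716). The lung values of the HSP70 genes are thus not shown to differ from those in the liver.

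Genes that work beside the members were counted in the same fits, with none of the liver genes below passing after adjustment. Each lung count of calls reads against the 9.22% of all lung genes called at an adjusted p under 0.05, each count at an unadjusted p of at most 0.05 against 30.1% in the lung and 7.55% in the liver, and each lack of overlap there against the 36.0% of all lung genes that had none. HSF1, the factor behind the inducible heat shock genes, had 32.5, 36.4 and 33.6 CPM of its RNA Hsf1 in the CS lungs and 51.6, 74.1 and 68.5 CPM in the PS lungs, with no overlap (0.92, SE 0.17, edgeR adjusted p = 0.0243). Its value in the liver was 0.11 (SE 0.25, adjusted p = 0.974), and the difference between tissues did not pass (0.76, SE 0.32, adjusted p = 0.415). Of the 4 genes for heat shock factors and their binding protein, 2 rose in the lung, Hsf1 and the lens factor Hsf4 (1.30, SE 0.29, adjusted p = 0.0352), while Hsf2 was at 0.43 (adjusted p = 0.191).

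Small heat shock proteins hold unfolded proteins in solution without ATP. Of 6 tested in the lung, 2 rose: Hspb1 (HSP27), from 112, 135 and 102 CPM in CS to 229, 212 and 323 CPM in PS lungs (1.13, SE 0.20, edgeR adjusted p = 0.0218), and Cryab (alpha-B crystallin), from 185, 215 and 186 CPM to 309, 332 and 283 CPM (0.66, SE 0.15, adjusted p = 0.036). Neither gene's groups overlapped, as for 36.0% of all lung genes. Markers of heart and skeletal muscle, a tissue rich in Cryab, summed to 207 to 549 TPM in the CS and to 51.2 to 477 TPM in the PS lungs, with 0 of 6 called. Their part was not tested. In the liver 0 of 4 small heat shock genes tested passed at either threshold in edgeR.

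Of 18 other J-domain genes, Dnajc7, a partner of both HSP70 and HSP90, rose in the lung (0.70, SE 0.17, edgeR adjusted p = 0.0398, lost with scaling by total count), and Dnaja4 (-1.83, adjusted p = 0.0409) and Dnajc3, which works in the endoplasmic reticulum (-0.77, adjusted p = 0.0403), fell. With total counts none of the 18 was called higher and 3 were called lower. Of 22 HSP90 paralogs and cochaperones, Ptges3 (p23, 0.67, adjusted p = 0.0486) and Bag6 (0.58, adjusted p = 0.0439) rose and none fell, a share near the 9.22% called over all lung genes, and both calls were lost with scaling by total count. None of 10 other HSP70 and HSP110 genes (at an unadjusted p of at most 0.05, 1 was higher and 3 were lower, beside 30.1% of all lung genes) and none of 10 chaperonins (2 lower by the same measure) was called in edgeR. In the liver the unadjusted threshold, passed by 7.55% of all liver genes, was passed by 1 of 9 other HSP70 and HSP110 genes, Hspa12b, lower in PS (unadjusted p = 0.0451), and by 2 of 22 cochaperones, Fkbp5 (0.77), a glucocorticoid-responsive cochaperone, and Ahsa2 (0.44), both higher, and by no J-domain gene or chaperonin.

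Of 28 genes of the unfolded protein response, which also controls Hspa5, 3 rose in the lung, Derl3 (1.48, SE 0.30, edgeR adjusted p = 0.0301), the stress factor Ddit3 (CHOP, 0.78, adjusted p = 0.0314) and Manf (0.54, adjusted p = 0.049), and Dnajc3 fell, so 4 of 28 were called beside 9.22% of all lung genes, with a median of -0.01 against 0.01 over all genes. With scaling by total count, 2 were called higher and 1 lower. Hsp90b1 (GRP94), the partner of Hspa5 in the endoplasmic reticulum, did not pass in either tissue (lung 0.08, SE 0.17, adjusted p = 0.793, and liver 0.03, SE 0.23, adjusted p = 0.993). In the liver 1 of the 28 was higher and 1 lower at the unadjusted threshold (7.55% of all liver genes), with a median of 0.17 against -0.03 over all genes and 21 of 28 above that median. Herpud1, which helps degrade misfolded proteins, stood at 157 to 386 CPM in CS and 422 to 846 CPM in PS livers with no overlap, as for 3.63% of all liver genes (1.13, SE 0.30, unadjusted p = 0.00285, adjusted p = 0.299), and Atf4 was at -0.45 (unadjusted p = 0.0366). Of 11 RNA-binding relatives of Cirbp and Rbm3, 3 rose in the lung and none fell: Rbm4b (1.01, SE 0.18, adjusted p = 0.0224), Tia1 (0.88, adjusted p = 0.0412) and Srsf7 (0.83, adjusted p = 0.0204), with 2 called under total counts. None of the 11 passed at the unadjusted threshold in the liver, in edgeR. Dnajc7, Manf, Srsf7 and the clock genes named were chosen after their values were seen.

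All calls in the lung rested on few mice: edgeR called 1542 genes with all 6, between 0 and 2949 with 1 left out, and 0 without CS04 (3890 at an unadjusted p of at most 0.05). By the marker lists of other cells, in the lung 1 of 5 erythroid genes (Alas2, -1.24, adjusted p = 0.0354), 1 of 3 endothelial genes (Kdr, -0.95, adjusted p = 0.0412) and 1 of 3 macrophage genes (Adgre1, -0.81, adjusted p = 0.0448) fell, and no alveolar, club, ciliated, fat, muscle, B, T or neutrophil marker was called in edgeR. The summed levels did not overlap between the diets for 3 of these lists, with 31987 to 37101 TPM in CS and 41561 to 60718 in PS lungs for alveolar epithelium, 8825 to 11445 and 6008 to 7567 for macrophages, and 121 to 212 and 91.8 to 117 for B cells. The alveolar sum was mostly Sftpc, at 26877 to 55730 TPM across the lungs. By gene, 3 alveolar markers were higher and 2 lower in PS lungs, with a median change of 0.04 against 0.01 over all genes. For B cells 1 was higher and 3 lower (median -0.47), and all 3 macrophage markers tested were lower (median -0.37). In the liver edgeR called no marker (1 fat cell and 1 macrophage gene were lower at an unadjusted p of at most 0.05), and the sums overlapped for macrophages (149 to 234 TPM in CS and 43.6 to 176 in PS, median change -0.84 with all 4 genes below 0) and for endothelium (9.62 to 19.9 and 4.55 to 15.5 TPM, median change -0.56 with all 3 below 0). The clock list had 4 higher and 2 lower calls of 15 in the lung (2 and 2 with total counts), among them Ciart (2.62, adjusted p = 0.0448) and Nr1d1 (1.29, adjusted p = 0.037). Mitochondrial genes took 2.94% to 3.51% of the counts in the CS and 3.69% to 7.28% in the PS lungs, and 3.33% to 14.4% in the livers, where CS02 was the highest and stood farthest out on the first principal component. The part of these cells and libraries in the members' values was not tested.

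The second comparison set the 2 tissues of the same 6 mice side by side, and its directions hung on the scaling. The 10 genes with the most counts took 16.6% to 28.8% of a liver library and 9.82% to 15.2% of a lung library, and TMM factors were 0.617 to 0.658 in the livers against 1.452 to 1.624 in the lungs. Replacing them with total counts alone moved the median over all genes by 1.30 (log2), from 0.33 to 1.63. With TMM, 8 members were called at an adjusted p under 0.05 in edgeR with the mouse as a block, 3 higher in the lung (background 41.5%, 7313 of 17605 genes) and 5 lower (background 28.8%, 5069 genes). With total counts, 6 were called higher and none lower, and over all genes the share of calls that were higher went from 59.1% to 84.6%. Relative to the median of all genes, 4 members, Hspa1a, Hsp90aa1, Cirbp and Rbm3, were above it and 6 below it. A change of scaling moves all genes by nearly the same amount, so this order hardly depends on it.

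**Figure D4:**
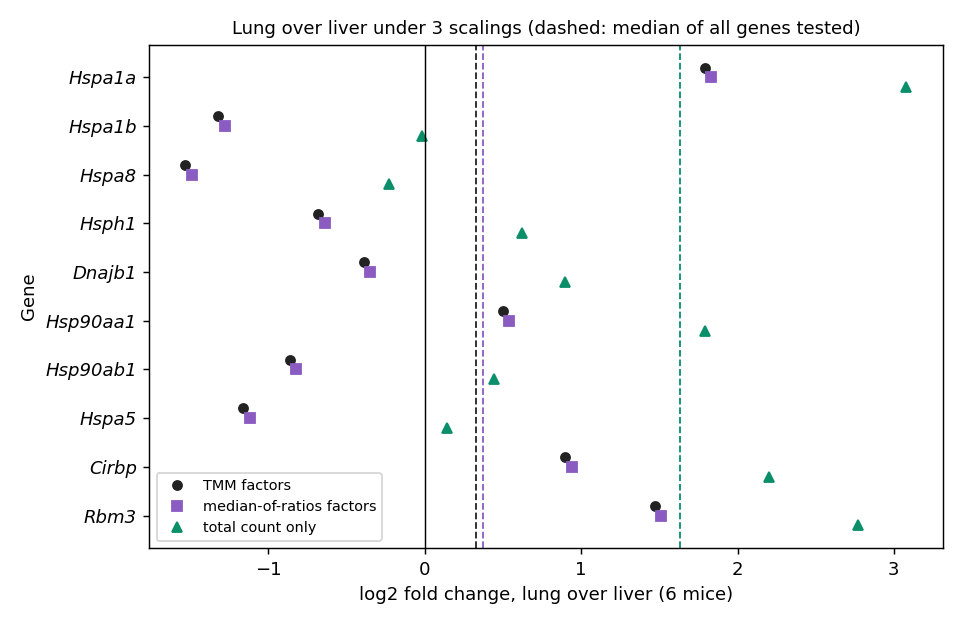
Log2 fold change of lung over liver in the 6 mice with both tissues under TMM factors (black circles), median-of-ratios factors (purple squares) and total counts alone (green triangles), with the median of all genes as a dashed line in the same colour (0.33, 0.37 and 1.63). Hspa1a, Cirbp and Rbm3 are right of 0 under all 3, and Hsp90ab1, Hsph1, Dnajb1 and Hspa5 change sides of 0.

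The cold-inducible genes and Hspa1a were higher in the lung under every scaling run. Rbm3 was 5.34 to 24.4 times as high in the lung in TPM over the 6 mice, and at most 7.06 times without CS02, the mouse whose liver stood farthest from the others, with a fitted log2 difference of 1.47 (SE 0.24, edgeR adjusted p = 0.000265) under TMM and 2.77 under total counts. Cirbp was 3.58 to 9.51 times as high in TPM, and at most 5.11 times without PS15 (0.90, SE 0.19, adjusted p = 0.00198, and 2.20 under total counts). Hspa1a was 3.17 to 32.3 times as high in TPM, and at most 13.8 times without CS02 (1.79, SE 0.37, adjusted p = 0.0014, and 3.08 under total counts). Hsp90aa1, 2.3 to 8.59 times as high in TPM, was at 0.50 under TMM (adjusted p = 0.152) and was called only under total counts (1.79) or with at least 10 counts required in every library (0.71).

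The other 6 members were below the median of all genes, and no direction of theirs held under every scaling with a call. Hspa8 was at -1.53 (SE 0.29, edgeR adjusted p = 0.000885) under TMM and at -0.23 (adjusted p = 0.413) under total counts, and in TPM it was higher in the lung in 2 of 6 mice. Hspa1b was at -1.32 (adjusted p = 0.0101) and -0.02 (adjusted p = 0.966) and was higher in TPM in 4 of 6 mice. Hspa5 was at -1.16 (adjusted p = 0.0138) under TMM and 0.14 under total counts, Hsp90ab1 at -0.86 (adjusted p = 0.0129) and 0.44, Hsph1 at -0.68 (adjusted p = 0.00571) and 0.62, and Dnajb1 at -0.39 (adjusted p = 0.117) and 0.90, so these 4 turned with the scaling. Of the lists, the 10 chaperonins and the 4 heat shock factor genes lay wholly below the median of all genes, and 5 of 28 unfolded protein response genes, 3 of 22 cochaperones and 4 of 18 J-domain genes were above it under TMM. Above it were also 5 of 10 other HSP70 and HSP110 genes, 4 of 6 small heat shock genes (median 2.62) and 7 of 11 RNA-binding relatives (median 0.41).

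Ratios between 2 genes of the same library need no scaling, and they separated the tissues clearly. Reads from Hspa1a made up 3.54%, 4.33%, 4.76% and 7.81% of the counts of Hspa1a and Hspa1b together in the CS livers and 12.1%, 5.01%, 7.58%, 4.47% and 6.72% in the PS livers. In the lungs they made up 36.1%, 36.0% and 34.2% in CS and 40.7%, 37.6% and 33.8% in PS mice. The highest liver was thus far below the lowest lung, with means of 6.26% ± 2.66 (SD, n = 9) and 36.4% ± 2.52 (SD, n = 6). Within a mouse the lung share was higher by 27.1 to 32.5 percentage points (mean 29.9 ± 2.0), in 6 of 6 mice, with a two-sided exact sign-flip permutation p of 0.0312, the smallest that 6 pairs can give, for a measure chosen after its values were seen. The counts behind the liver share of Hspa1a were few, 10 to 69 per library, and the widest 95% interval (Wilson, counting error only) was 4.3% to 13.8% in CS09. Between the diets the share differed by 2.07 points in the liver (exact permutation p = 0.27) and by 1.91 points in the lung (exact permutation p = 0.5, in a design of 3 against 3 that cannot go below 0.1).

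The pair shares 99.1% of its bases over 2200 aligned bases of transcript, and how reads that fit both were counted is not given in the sources used here. The split between the pair is therefore uncertain in level, and only reads over bases that differ can tell them apart. The summed pair was at -0.76 for lung over liver under TMM (adjusted p = 0.0929). It was not fitted under total counts, which move the median of all genes by 1.30, and any reads dropped because they fit both genes would be missing from the sum too.

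Hsp90aa1 per Hsp90ab1 in TPM was 0.0981 to 0.191 in the livers and 0.282 to 0.446 in the lungs, again with no overlap, and was higher in the lung in 6 of 6 mice (mean log2 difference 1.36 ± 0.44, SD, exact sign-flip permutation p = 0.0312). Rbm3 per Hspa8 was 0.00235 to 0.0139 in the livers and 0.0305 to 0.0959 in the lungs (3.01 ± 1.11, median 2.77, n = 6, exact permutation p = 0.0312). Cirbp per Hspa8 was 0.0066 to 0.0181 and 0.0307 to 0.0991 (2.43 ± 0.71, n = 6, exact permutation p = 0.0312). The ratio of the 2 cold-inducible genes to each other, Rbm3 per Cirbp, overlapped between the tissues (0.22 to 1.08 and 0.574 to 1.19, exact permutation p = 0.188). These 5 within-mouse ratios, the share included, were picked after the levels were known, and 4 of them sit at the smallest p that 6 pairs allow.

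**Figure D5:**
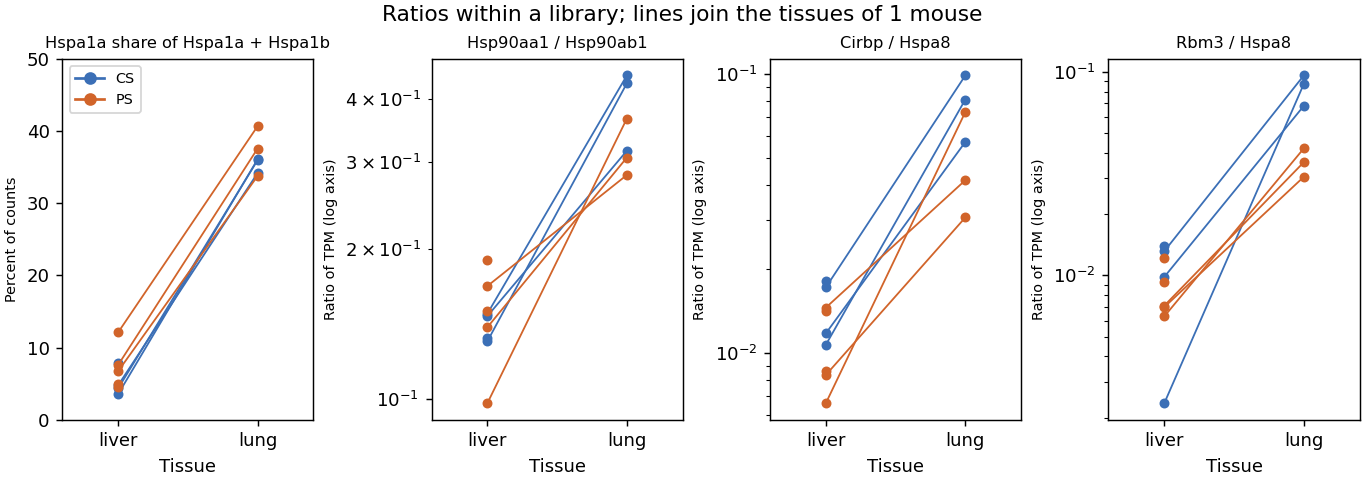
Share of Hspa1a in the counts of the Hspa1a and Hspa1b pair (percent) and the TPM ratios of Hsp90aa1 to Hsp90ab1, Cirbp to Hspa8 and Rbm3 to Hspa8 (log axes), with 1 point per library, blue for CS and orange for PS, and lines joining the liver and lung of a mouse. In all 4 panels every line rises from liver to lung and the tissues do not overlap, with shares of 3.54% to 12.1% in the livers and 33.8% to 40.7% in the lungs.

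Near-identical copies touch some of these levels. The 5 genes that share sequence with Rbm3 together held a mean of 367 counts in the livers, more than the 301.7 of Rbm3 itself, and 544.5 in the lungs against 1978.5. Most of that was Phospho2, a gene of its own that shares a stretch of 380 bases at 97.4% identity, with 330 counts in the livers and 383.7 in the lungs. The other copies with counts held 9.8 and 39.5 (Gm10156), 9.2 and 31.5 (Rbm3-ps) and 18 and 89.8 (Gm48583) in liver and lung. The lung to liver ratio of Rbm3 is uncertain to the extent that reads were assigned between them, which was not tested. For Hspa8 the 10 copies together held a mean of 75.5 counts in the livers and 56.6 in the lungs against 32392 and 33230 for the gene, and for Hsp90aa1 the 3 copies held 33.7 and 114 against 3113.7 and 10292. Rbm3os, which overlaps Rbm3 by 94 bases on the other strand, held at most 8 counts, and Gm20481, opposite Hspa1a, held none.

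Among 10258 genes expressed in both tissues, those whose log2 CPM followed a member most closely were found by the mean of 2 Pearson correlations, over the 9 livers and over the 6 lungs, as a description with few mice behind it. Nearest to Hsph1 were Trim28 (0.86), the HSP70 cochaperone Bag3 (0.85), the member Hsp90ab1 (0.85), Xpnpep3 (0.80) and Sema4c (0.80). Hsp90aa1 stood in place 8 and Hspa1b in place 13, while Hspa8 stood in place 5866. Nearest to Cirbp were Lamc3 (0.86), Spsb2 (0.86), Pex16 (0.82), Sphk2 (0.80) and Zfp316 (0.80), and Rbm3 stood in place 5034 with a mean of 0.01.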

How the data were processed

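The authors extracted RNA with Trizol, selected poly(A) RNA, built libraries with a NEBNext Ultra kit that does not mark strand and, by the submitters' processing notes, aligned reads to mm10 with HISAT2 2.0.5 and counted them per gene with featureCounts 1.5.0-p3 (settings for strand and shared reads are not given in the sources used here), and the deposited counts are whole reads per gene with no normalization. The deposited FPKM values, made by the authors, are those counts per gene length and library and served only as an alternative. DESeq2 1.20.0, also in those notes, is not a source of any value here. Columns were matched to samples by tissue and mouse number. GENCODE M21 (GRCm38) holds 54409 of the 54532 genes, all 10 members with the same start and end. Promoter sequences come from RefSeq (GRCm38.p6).

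Counts were compared with edgeR 4.0.16 (R 4.3.3): filterByExpr, TMM factors, robust quasi-likelihood test, Benjamini-Hochberg adjustment over all genes tested. DESeq2 1.42.0 (Wald test) and limma 3.58.1 (log2 of FPKM plus 1 or 0.1) were alternatives, with median-of-ratios factors, no filter, a minimum of 10 counts in every library, removal of a GC trend (loess span 0.3, GC known for 99.9% of genes tested), a block, the summed Hspa1a and Hspa1b counts and each library or mouse left out. Scaling by total counts alone was added after seeing that TMM factors differ between the tissues. Standard errors are the fold change over the root of F. TPM was computed from counts and the deposited gene lengths. Replicate numbers of CS and PS mice share only a number, whereas liver and lung of a mouse are the same animal by the labels. The deviations of a mouse's liver and lung from their group means correlated at -0.06 to 0.12. No pair of libraries within a group was alike within counting noise. The main edgeR fit of each comparison was run on simulated counts, and the alternatives were not. For lung over liver the simulated tissues shared 1 set of base levels, so the dependence on scaling was not part of that check.

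The members, the lists beside them and the tests were chosen with earlier results of these data known. Named besides the members are Hsf1, Hsf2, Hsp90b1 and, per list, the 2 genes with the largest change among those past the threshold (adjusted p under 0.05 in the lung, unadjusted p of at most 0.05 in the liver), plus the 5 genes most like Hsph1 and Cirbp with log2 CPM of at least 1. Dnajc7, Manf, Srsf7 and the clock and cell marker genes lie outside this rule. Lists were described by counts and medians, not tested. Copies were transcripts with at least 95% identity over 200 bases.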

Additional observations from a re-analysis of the deposited data

Results flagged for a closer look

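Of 20 groups of 4 or 5 livers, 10 members in each diet, 2 held a mouse set apart from the rest by Dixon's criterion at 95%, where chance would give about 1 in 20 groups for normally distributed values. Both are the CS mouse CS01. Its Hspa1a level of 3.64 CPM stood apart from the next CS liver at 1.04 CPM, with a gap of 0.865 of the group's range. Its Hspa1b level of 99.3 CPM stood apart from the next at 20.9 CPM, with a gap of 0.855. The 2 genes share sequence and are not independent. The criterion was applied to CPM and not to log2 CPM, so the chance rate may not hold. Whether CS01 would be set apart on the log2 scale was not tested. The same liver had the highest Hspa5 level of all 9, 1065 CPM, the highest Hspb1 level, 93.9 CPM, and 3.33% mitochondrial counts, the lowest of the livers. Without it the liver fold changes were 1.68 for Hspa1a and 1.38 for Hspa1b. Groups of 3 lungs were not tested.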

How the results depend on the processing

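The liver result for the members, none called after adjustment, held under every alternative run, and at the unadjusted threshold the number of members went from 0 to between 0 and 3 when a liver was left out (3 without CS01, 1 without PS09). Over all genes the liver count at that threshold went from 996 to 1613 without a filter, to 484 with the replicate block and to 699 to 1891 with a liver left out (1891 without CS02). The adjusted count in the liver went from 1 to 0 under total counts and under the replicate block, 163 with DESeq2, 26 without a filter, 2 with at least 10 counts, 6 and 4 with limma on log2 FPKM with 1 and 0.1 added, and 0 to 65 with a liver left out, while 484 to 1891 genes passed unadjusted in each. In the lung, members called went from 0 to 2 with DESeq2, to 1 without a filter, with at least 10 counts or with the GC trend removed, and to 0 to 2 with a lung left out (2 without PS04, 1 without PS15). All genes called there went from 1542 to 3090 with DESeq2 and to 0 to 2949 with a lung left out (23 without CS01, 26 without CS02, 0 without CS04, 9 without PS09, 2949 without PS04). For the difference between tissues, genes called went from 4 to 228 with DESeq2, 10 without a filter, 0 with the mouse as replicate block and 0 to 12 with a library left out, and no member was called in any. For lung over liver, genes called went from 12382 to 7308 with at least 10 counts, and members called from 8 to 6 to 9 over all alternatives.

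Under total counts lung over liver became 0.44 for Hsp90ab1, 0.62 for Hsph1, 0.90 for Dnajb1 and 0.14 for Hspa5, of which Hsp90ab1, Hsph1 and Hspa5 had been called lower, and liver Hspa5 became -0.02. Liver Rbm3 became 0.03 and 0.07 with limma on log2 FPKM and 0.08 with the replicate block. The block also gave -0.01 for Hsph1 in the lung and, as mouse block on the difference between tissues, 0.02 for Hsp90aa1, 0.22 for Hsph1 and 0.08 for Hspa5, and removal of the GC trend gave -0.02 for Hspa1a there. With a library left out the liver values ran from -0.38 to 1.38 for Hspa1b, -0.07 to 0.29 for Hspa8, -0.04 to 0.30 for Hsp90ab1, -0.27 to 0.57 for Hspa5 and -0.30 to 0.18 for Rbm3. The lung values ran from -0.24 to 0.07 for Hsp90aa1, -0.01 to 0.36 for Hsp90ab1, -0.42 to 0.51 for Hsph1, -0.55 to 0.05 for Dnajb1 and -0.28 to 0.16 for Cirbp. The differences between tissues ran from -0.67 to 0.63 for Hspa1a, -0.49 to 1.29 for Hspa1b, -0.18 to 0.20 for Hsp90ab1, -0.78 to 0.10 for Hsph1 and -0.84 to 0.02 for Hspa5. The cause of these changes was not tested. Replicate numbers did not pair the diets, with correlations of -0.36 to 0.10 between same-numbered mice, so the replicate block there is a check of numbers only.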
